A study of Mus musculus with 4 samples.

Results

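The 7 genes described here encode ligands that antigen-presenting cells show to T cells: Cd80, Cd86, Cd40, Cd274 (PD-L1), Pdcd1lg2 (PD-L2), Icosl (ICOS ligand) and Tnfsf9 (CD137 ligand). They were taken as every probe set whose only gene symbol in the array's probe-to-gene table was one of these names, which gave 13 of 22690 probe sets and 7 of 12393 genes with a probe set of their own. Expression was measured on 4 Affymetrix mouse arrays of YFP-positive macrophages, 1 array per group. The tumor arrays hold macrophages from mammary tumors at an early stage, induced by the PyMT oncogene (polyoma middle T), 1 labelled Ets2-null, with 2 copies of Ets2 deleted, and 1 labelled Ets2-wildtype in its title but as carrying 1 copy of Ets2 in its source label. The remodeling arrays hold macrophages from mammary glands without tumor, 1 labelled Ets2-null, again with 2 copies deleted, and 1 labelled wild type. All mice expressed YFP in macrophages and all cells were flow sorted on it. Each group rests on a single array, and the labels name neither the promoter behind the YFP and the Ets2 deletion nor the age or number of the mice.

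T cells need a second signal beside antigen, and these ligands give or withhold it. CD80 and CD86 bind CD28, which stimulates T cells, and CTLA-4, which restrains them, while ICOSL binds ICOS and the TNF-family ligand encoded by Tnfsf9 binds CD137 (Tnfrsf9) on activated T cells. PD-L1 and PD-L2 bind PD-1 and dampen T cell responses. CD40 is itself a receptor on the presenting cell, and its engagement by CD40 ligand on helper T cells raises CD80 and CD86. Tumor macrophages are known for carrying PD-L1.

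With 1 array per group there was no spread between samples, so no test was run and every difference below is between arrays, with no replicate check. Values are log2 expression values as deposited. A probe set counted as bright where the higher of both arrays in a pair reached that array's median (6.30, 6.22, 5.98 and 6.17 on the Ets2-null tumor, Ets2-wildtype tumor, Ets2-null remodeling and Ets2-wildtype remodeling arrays), and was called where it was bright and differed at least 2-fold. As an error, the spread between bright probe sets of one gene was used, with a median SD of 0.22 log2 in the tumor Ets2 comparison, 0.16 in the remodeling Ets2 comparison, 0.18 in tumor minus remodeling among arrays labelled Ets2-null and 0.25 among those labelled Ets2-wildtype. It does not cover mice, sorts or amplification. The Ets2 probe set read 12.67 and 12.97 on the tumor and remodeling arrays labelled Ets2-null, against 12.77 and 13.24 on those labelled Ets2-wildtype. Which exons were deleted is not stated, and probes outside the deletion would leave the label unchecked. Of 12 macrophage markers, 11 were at or above the median on every array, and their median difference lay between -0.10 and -0.07 log2 in all 4 comparisons. Itgam (CD11b) was the exception, at 5.26 and 5.99 on the Ets2-null and Ets2-wildtype tumor arrays and 4.99 and 5.04 on the remodeling arrays in the same order.

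Cd80 had the widest span over the 4 arrays of any member, up to 2.62 log2, and was lower in tumor than in remodeling macrophages. Its probe set of highest mean, 1451950_a_at, read 7.23 on the Ets2-null tumor array and 7.16 on the Ets2-wildtype tumor array, against 7.75 and 8.38 on the remodeling arrays labelled Ets2-null and Ets2-wildtype. Probe set 1432826_a_at read 6.44 and 5.94 on the tumor arrays, against 7.80 and 8.56 on the remodeling arrays, and 1427717_at read 6.63 and 6.58, against 7.01 and 8.10. All 3 put the arrays in the same order, with Ets2-wildtype remodeling highest, then Ets2-null remodeling, then Ets2-null tumor, then Ets2-wildtype tumor. The fourth probe set, 1454372_at, lay below the 25th percentile of every array (3.84 to 4.17) and carried no usable signal. Since these are sorted bulk samples, fewer cells with Cd80 and less Cd80 RNA per cell cannot be told apart.

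Between the arrays labelled Ets2-wildtype, Cd80 was 2.34-fold, 6.13-fold and 2.86-fold lower in tumor by the 3 bright probe sets, in the order above (log2 differences of -1.22, -2.62 and -1.52, mean -1.79, SD between probe sets 0.73). Each passed 2-fold, as did 6.68% of the 10983 bright probe sets that name a single gene, in the same direction. With the brightness limit raised to the 75th percentile Cd80 no longer counted. Between the arrays labelled Ets2-null the differences were -0.53, -1.36 and -0.38 (mean -0.76, SD 0.53), and 1432826_a_at alone passed (1.92% of 10871 did so, lower). The 2 tumor-minus-remodeling differences share no array, and all 6 lay below 0. In remodeling macrophages the array labelled Ets2-null was also lower than the wild-type one, by log2 differences of -0.63, -0.76 and -1.09 (mean -0.83, SD 0.24), of which the last passed 2-fold (5.06% of 10830 did so, lower). In tumor macrophages the Ets2-null minus Ets2-wildtype difference was 0.07, 0.50 and 0.05, with a mean of 0.20 that lies within the spread between probe sets (SD 0.25).

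**Figure D1:**
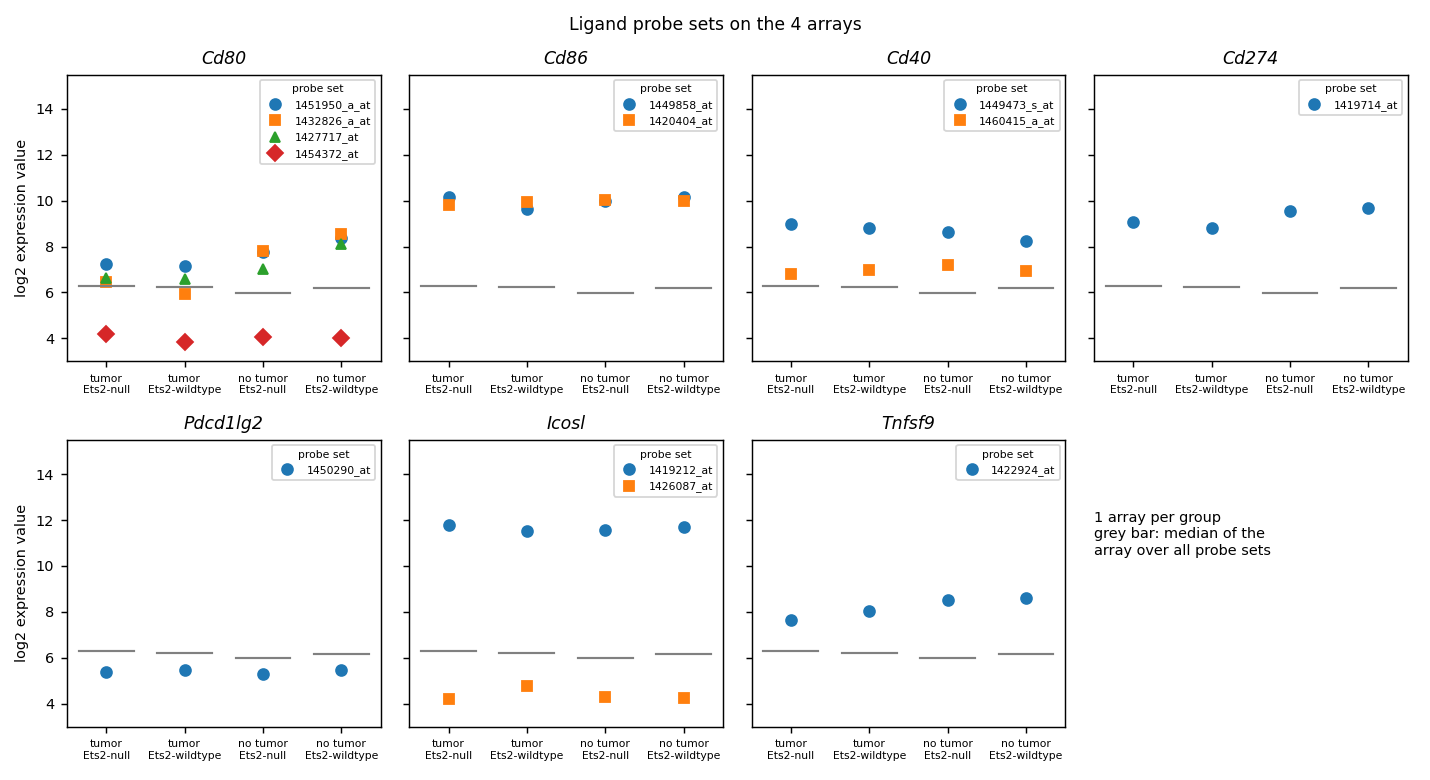
Log2 expression values (y axis) of the 13 ligand probe sets on the 4 arrays (x axis), 1 panel per gene, 1 symbol per probe set, with each array's median over all probe sets as a grey bar. The 3 bright Cd80 probe sets run from 5.94 to 7.23 on the tumor arrays and from 7.01 to 8.56 on the remodeling arrays, while Cd86 stays between 9.64 and 10.18 on all 4.

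Cd86, the other ligand of CD28 and CTLA-4, was nearly level. Probe set 1449858_at read 10.18 and 9.64 on the tumor arrays labelled Ets2-null and Ets2-wildtype, against 9.97 and 10.17 on the remodeling arrays in the same order. Probe set 1420404_at read 9.80 and 9.94 on the tumor arrays, against 10.03 and 9.99 on the remodeling arrays. The probe sets disagree on the order of the arrays. In the tumor Ets2 comparison they gave 0.53 and -0.14, and between the Ets2-wildtype arrays tumor minus remodeling was -0.52 and -0.05, so no direction can be given for Cd86 beyond the spread between its probe sets (SD 0.48 and 0.33). Neither probe set passed 2-fold in any comparison.

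Cd40 was slightly higher on the array labelled Ets2-null in remodeling macrophages by both of its probe sets, and below 2-fold throughout. Probe set 1449473_s_at read 8.99 and 8.82 on the Ets2-null and Ets2-wildtype tumor arrays, against 8.65 and 8.24 on the remodeling arrays. Probe set 1460415_a_at read 6.78 and 6.96, against 7.20 and 6.92. The remodeling Ets2 difference was 0.41 and 0.28 (mean 0.35, SD between probe sets 0.09), larger than that spread, whereas the tumor Ets2 difference was 0.17 and -0.18. Tumor minus remodeling was 0.58 and 0.04 on the Ets2-wildtype arrays and 0.34 and -0.42 on the Ets2-null arrays, where the probe sets pointed opposite ways.

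Cd274, which encodes PD-L1, was bright on all arrays and lower in tumor than in remodeling macrophages, without reaching 2-fold. Its single probe set read 9.07 and 8.82 on the tumor arrays labelled Ets2-null and Ets2-wildtype, against 9.54 and 9.67 on the remodeling arrays. Both tumor arrays lay below both remodeling arrays, in the same order as for Cd80. Tumor minus remodeling was -0.86 log2 on the Ets2-wildtype arrays (1.81-fold lower) and -0.47 on the Ets2-null arrays. The Ets2-null minus Ets2-wildtype difference was 0.26 in tumor and -0.13 in remodeling macrophages, near the median SD between probe sets of a gene (0.22 and 0.16), and the remodeling value turned to 0.06 after median centring.

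Pdcd1lg2, which encodes the other PD-1 ligand and is the next protein-coding gene to Cd274 on chromosome 19, gave a dim signal everywhere. It read 5.39 and 5.45 on the Ets2-null and Ets2-wildtype tumor arrays, against 5.27 and 5.45 on the remodeling arrays, each below the array median and above the 25th percentile (4.27 to 4.32). It was therefore counted in no comparison, and its differences lay between -0.18 and 0.12 log2.

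Icosl had 1 bright probe set, 1419212_at, which varied little. It read 11.80 and 11.52 on the Ets2-null and Ets2-wildtype tumor arrays, against 11.59 and 11.69 on the remodeling arrays, a span of 0.28 log2. The other probe set, 1426087_at, was dim on all arrays (4.21 to 4.79) and ran the other way in the tumor Ets2 comparison, at -0.58 against 0.28. Tnfsf9, the TNF-family ligand of CD137, read 7.65 and 8.04 on the tumor arrays labelled Ets2-null and Ets2-wildtype, against 8.51 and 8.60 on the remodeling arrays. Both tumor arrays were below both remodeling arrays, with differences of -0.86 log2 for the Ets2-null pair (1.82-fold lower) and -0.56 for the Ets2-wildtype pair. The first passed 2-fold after each array was centred on its median (-1.18). Ets2-null minus Ets2-wildtype came to -0.39 between the tumor arrays and -0.09 between the remodeling arrays, the second of which turned to 0.10 after that centring.

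The sequences around the starts of Cd80, Cd274 and Pdcd1lg2 are shown because Cd80 and Cd274 had the same order of arrays, whereas Pdcd1lg2 lies next to Cd274 and stayed dim, and because ETS factors bind DNA around a GGAA core. Each is 250 bases before to 50 bases after the start given by RefSeq (GRCm38.p6, plus strand, chr16:38458683-38458982, chr19:29367188-29367487 and chr19:29410669-29410968), with GGAA on either strand (TTCC as read here) in capitals. RefSeq promoters were matched for 4 of the 7 genes.
Cd80: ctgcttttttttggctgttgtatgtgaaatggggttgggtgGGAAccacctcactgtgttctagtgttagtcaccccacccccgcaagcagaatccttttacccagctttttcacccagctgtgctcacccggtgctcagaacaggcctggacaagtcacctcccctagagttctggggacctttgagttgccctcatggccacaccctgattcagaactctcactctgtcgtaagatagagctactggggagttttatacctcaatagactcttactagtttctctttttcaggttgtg
Cd274: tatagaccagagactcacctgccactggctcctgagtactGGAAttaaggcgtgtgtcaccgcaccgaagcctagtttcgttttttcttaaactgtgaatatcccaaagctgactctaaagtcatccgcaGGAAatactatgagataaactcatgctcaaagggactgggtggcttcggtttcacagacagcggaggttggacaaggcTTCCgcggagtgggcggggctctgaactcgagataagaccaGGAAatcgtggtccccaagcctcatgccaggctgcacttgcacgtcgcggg
Pdcd1lg2: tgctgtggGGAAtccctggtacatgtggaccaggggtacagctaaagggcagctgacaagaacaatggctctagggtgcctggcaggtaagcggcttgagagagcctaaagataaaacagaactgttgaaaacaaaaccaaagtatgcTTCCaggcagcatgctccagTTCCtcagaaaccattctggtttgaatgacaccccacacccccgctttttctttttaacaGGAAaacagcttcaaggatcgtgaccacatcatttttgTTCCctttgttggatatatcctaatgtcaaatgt
The Cd80 window held 1 GGAA, 209 bases before the start, that of Cd274 held 4 and that of Pdcd1lg2 held 5. The Icosl window held 0. GGAA occurs at least once in 96.0% of 32851 RefSeq promoter windows of this length, with a median of 3. Also searched on both strands were TTCNNNGAA (the STAT site called GAS, which can overlap the ETS core) and TGANTCA (AP-1), which occur in 8.3% and 7.81% of all windows. Neither was found in the 4 windows, except 1 TGANTCA in that of Cd80, 42 bases before the start. A match describes letters and is not a binding site, and the absence of one in this window says nothing of the factor.

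Counted together, few members passed 2-fold. With 1 probe set per gene, that of the highest mean, 6 of the 7 genes were bright. Of these 6, Cd80 passed, lower, in tumor minus remodeling on the Ets2-wildtype arrays, where 5.2% of 7253 bright genes passed lower and 11.4% passed either way. None of the 6 passed between the Ets2-null arrays (9.22% of all bright genes), in the tumor Ets2 comparison (2.99%) or in the remodeling Ets2 comparison (6.48%). By probe sets, 3 of 10 bright ones were lower past 2-fold in tumor minus remodeling on the Ets2-wildtype arrays (6.68% of 10983), 1 of 10 on the Ets2-null arrays (1.92%), 1 of 10 in the remodeling Ets2 comparison (5.06%) and 0 of 10 in the tumor Ets2 comparison (3.19% either way). All 5 of these calls, made on values as deposited, are Cd80, whose probe sets share a transcript and are not independent. The median difference over the 7 genes was 0.17 in the tumor Ets2 comparison, -0.13 in the remodeling Ets2 comparison, 0.12 in tumor minus remodeling on the Ets2-null arrays and -0.52 on the Ets2-wildtype arrays, beside 0, 0.04, 0.01 and 0.08 over all genes. The tumor Ets2 difference minus the remodeling Ets2 difference, a value with no error, was 0.70 for Cd80, 0.73 for Cd86, 0.39 for Cd274, 0.38 for Icosl, 0.12 for Pdcd1lg2, -0.24 for Cd40 and -0.30 for Tnfsf9.

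**Figure D2:**
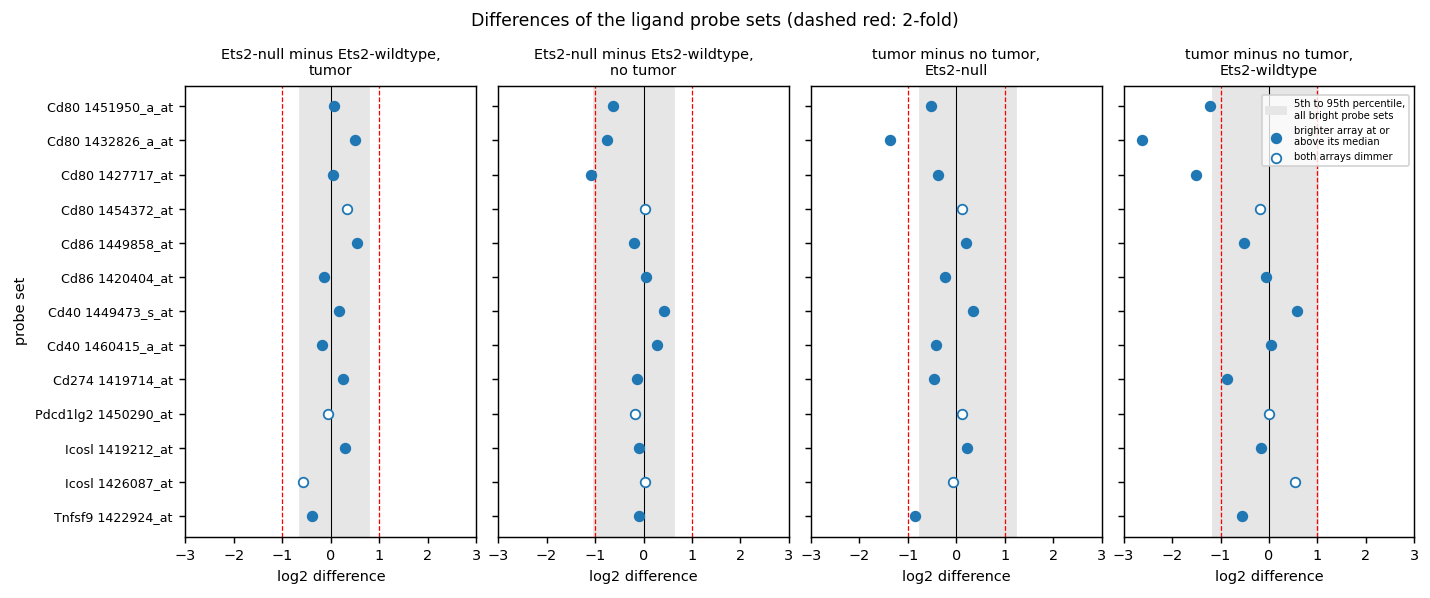
Log2 differences (x axis) of the 13 ligand probe sets (y axis) in the 4 comparisons, filled where the brighter array reached its median, with 2-fold as dashed lines and the 5th to 95th percentile of all bright probe sets in grey. The 3 bright Cd80 probe sets lie beyond 2-fold in tumor minus no tumor among the Ets2-wildtype arrays, at -1.22, -2.62 and -1.52.

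The receptors that these ligands engage were measured in the same sorts, together with other co-signalling receptors, of which Havcr2, Lag3 and Tnfrsf9 were higher past 2-fold in tumor macrophages in both pairs. Cd28 read 6.79 and 7.20 on the tumor arrays labelled Ets2-null and Ets2-wildtype, against 8.34 and 7.60 on the remodeling arrays, and was the 1 receptor lower past 2-fold in tumor, between the Ets2-null arrays (-1.55, with its other probe set at -1.06). Ctla4 read 7.87 and 8.14, against 7.56 and 7.97, and passed in no comparison. Tnfrsf9, which encodes the receptor of the Tnfsf9 product, read 7.61 and 7.76 on the tumor arrays, against 6.36 and 6.74 on the remodeling arrays. It was higher in tumor by 1.25 on the Ets2-null and 1.01 on the Ets2-wildtype arrays, the opposite direction to its ligand, although its other 2 probe sets were dim on all arrays. Icos was lower on the tumor array labelled Ets2-null, at 6.12 against 7.27 on the Ets2-wildtype tumor array (-1.15, with the other probe set at -1.04). In remodeling macrophages that other probe set was lower by more on the array labelled Ets2-null, at 5.36 against 6.64 (-1.28), and the first gave -0.39. The PD-1 gene Pdcd1 (4.18 to 5.35) and the CD40 ligand gene Cd40lg (3.92 to 4.29) were below the median of every array.

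Of 19 co-signalling receptors listed, 15 were measured. In tumor minus remodeling 5 of 8 bright ones were higher and 0 lower past 2-fold on the Ets2-wildtype arrays, where 6.18% of all bright genes were higher and 5.2% lower. On the Ets2-null arrays 3 of 7 were higher and 1 lower, where 7.61% of all bright genes were higher and 1.61% lower. In the tumor Ets2 comparison 0 of 8 were higher and 1 lower, where 2.23% of all bright genes were higher and 0.761% lower. In the remodeling Ets2 comparison 0 of 6 passed by the probe set of highest mean, where 6.48% of all bright genes passed either way. The median of the 15 in tumor minus remodeling was 0.57 on the Ets2-null and 0.29 on the Ets2-wildtype arrays, beside 0.01 and 0.08 over all genes. The inhibitory receptor gene Havcr2 (TIM-3) read 8.35 and 8.34 on the tumor arrays, against 6.12 and 6.37 on the remodeling arrays, and was higher by 2.23 and 1.97 log2 on the Ets2-null and Ets2-wildtype pairs. Lag3, which encodes an inhibitory receptor for MHC class II, was higher by 1.66 and 1.12. Tnfrsf18 (GITR) and Tnfrsf4 (OX40), TNF-family receptors of activated and regulatory T cells, were higher by 1.22 and 1.08 on the Ets2-wildtype arrays. On the Ets2-null arrays they gave 0.57 and 1.18, but Tnfrsf4 was too dim to count there (6.23 against 5.05).

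Other ligands of T cell co-signalling moved in both directions between tumor and remodeling macrophages. Of 19 listed, 14 were measured, and 9 were bright in each pair. Past 2-fold in tumor 1 was higher and 2 lower on the Ets2-wildtype arrays (background 6.18% and 5.2%), and 2 were higher and 1 lower on the Ets2-null arrays (7.61% and 1.61%). Vsig4, a complement receptor that inhibits T cells, read 9.20 and 8.71 on the Ets2-null and Ets2-wildtype tumor arrays, against 6.47 and 6.94 on the remodeling arrays, so that both tumor arrays were higher. Cd276 (B7-H3), a relative of CD80, read 8.35 and 7.97 on the tumor arrays, against 6.96 and 7.17, and passed 2-fold between the Ets2-null arrays (1.39). Tnfsf14 (LIGHT), a TNF-family ligand, read 6.11 and 6.07, against 7.27 and 7.47, with tumor minus remodeling at -1.15 and -1.39. Both tumor values lay below their array medians. Its other probe set was dim on all arrays (5.06 to 5.24) and gave -0.14 and 0.08. The median of the 14 was 0.13 and 0.10 in tumor minus remodeling on the Ets2-null and Ets2-wildtype arrays, beside 0.01 and 0.08 over all genes.

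Pvr, the nectin-like ligand of TIGIT and CD226, was highest on the wild-type remodeling array, as Cd80 was. It read 10.24 and 9.81 on the tumor arrays, against 10.13 and 11.41 on the remodeling arrays labelled Ets2-null and Ets2-wildtype. Its 3 bright probe sets gave -1.59, -1.75 and -1.52 in tumor minus remodeling on the Ets2-wildtype arrays. In the remodeling Ets2 comparison they gave -1.27, -1.37 and -1.60. There Pvr was the 1 of 9 bright other ligands to pass, where 5.17% of all bright genes passed lower. In the tumor Ets2 comparison 0 of 8 bright other ligands passed, where 2.99% of all bright genes did.

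**Figure D3:**
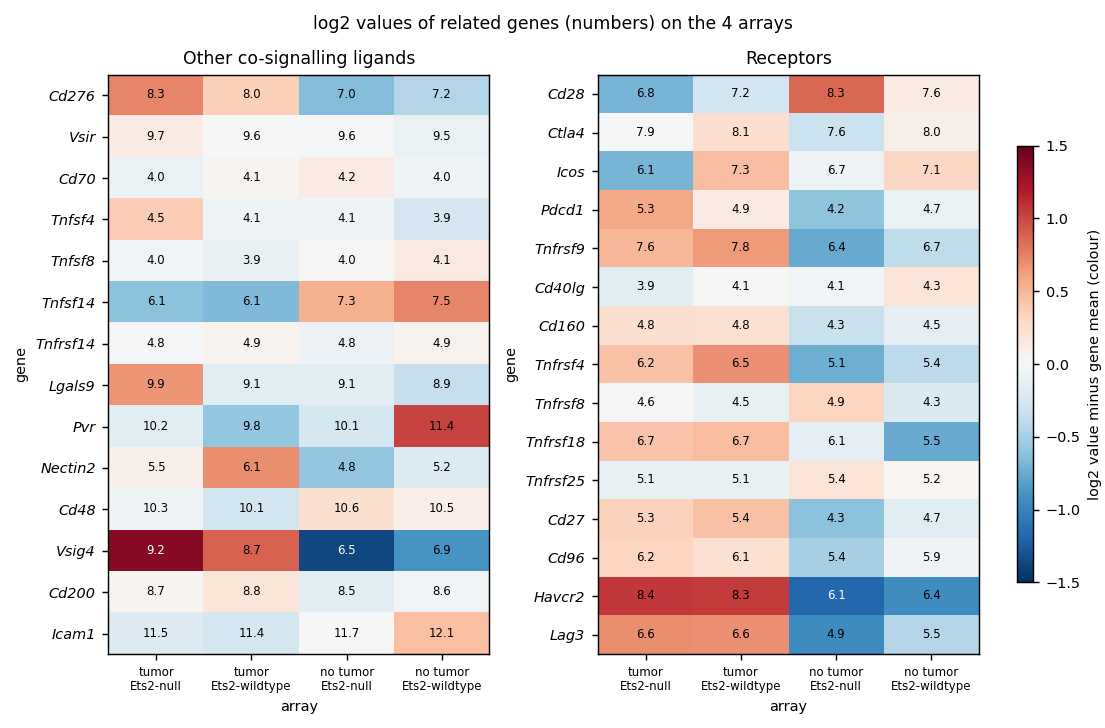
Log2 values (printed in each cell) of 14 other co-signalling ligands and 15 co-signalling receptors (rows) on the 4 arrays (columns), coloured by the difference from the mean of the gene. Havcr2 reads 8.35 and 8.34 on the tumor arrays against 6.12 and 6.37 on the remodeling arrays, and Tnfsf14 shows the opposite direction.

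By the probe set of highest mean, no bright gene of the pathways that raise these ligands passed 2-fold in any of the 4 comparisons, but single further probe sets of 4 genes did. Of all bright genes only 2.99% and 6.48% passed in the tumor and remodeling Ets2 comparisons. In tumor minus remodeling 9.22% passed on the Ets2-null and 11.4% on the Ets2-wildtype arrays, so with so few pathway genes the absence of calls says little. Of 16 genes of CD40 and NF-kappa-B signalling, 14 were measured and 11 were bright, with median differences of -0.19 and -0.31 in the tumor and remodeling Ets2 comparisons, and -0.16 and -0.33 in tumor minus remodeling on the Ets2-null and Ets2-wildtype arrays. Over all genes the medians were 0, 0.04, 0.01 and 0.08, in the same order. Relb, a subunit downstream of CD40, read 6.11 and 6.65 on the Ets2-null and Ets2-wildtype tumor arrays, against 6.55 and 7.13 on the remodeling arrays. Nfkbie, a feedback inhibitor, lay just below 2-fold, at 8.93 and 9.24 on the tumor arrays and 9.70 and 10.22 on the remodeling arrays (-0.98 for the Ets2-wildtype pair). Birc3, which encodes a ubiquitin ligase of this pathway, had 2 bright probe sets that differ. The brighter gave -0.28 and -0.29 in tumor minus remodeling on the Ets2-null and Ets2-wildtype arrays. The dimmer read 7.72 and 7.20 on the tumor arrays, against 8.97 and 9.09 on the remodeling arrays, and passed 2-fold lower in both (-1.25 and -1.89). Tnfaip3, another feedback inhibitor, was too dim to count, at 4.58 and 4.51 on the tumor arrays and 4.78 and 5.86 on the remodeling arrays. Of 14 genes of interferon-gamma signalling and PD-L1 regulation, 12 were measured and 11 were bright, with medians between -0.14 and -0.02 in the 4 comparisons. Single bright probe sets of the receptor kinase gene Jak1 (-1.10, lower) and of Ciita (1.37, higher), the activator of MHC class II genes, passed between the Ets2-wildtype arrays. One of Socs3, a feedback inhibitor of cytokine signalling (1.12, higher), passed between the Ets2-null arrays. The other bright probe sets of these 3 genes did not pass. Relb, Nfkbie, Birc3, Jak1, Ciita, Socs3, Tnfaip3, Pax5 and Cd3e were chosen for naming, like Cd79b, after their values were seen.

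Markers of other cell types differed between the arrays alongside Cd80, and signal was summed on the linear scale over each list. The brightest genes of a list weigh most in such a sum, so it is not a measure of cell content. The 14 measured dendritic cell markers summed to 18423 and 19152 on the Ets2-null and Ets2-wildtype tumor arrays, against 18218 and 20474 on the remodeling arrays. Of 12 bright dendritic cell markers 3 were higher and 2 lower past 2-fold in tumor on the Ets2-null arrays (7.61% and 1.61% of all bright genes). Of 11 on the Ets2-wildtype arrays 3 were higher and 1 lower (6.18% and 5.2%). In the remodeling Ets2 comparison 0 of 11 were higher and 2 lower, Ccl17 (-2.31) and Dpp4 (-1.17), beside 1.31% and 5.17% of all bright genes. Within that list Itgax (CD11c) was higher in tumor by 1.80 and 1.93 log2 and Zbtb46 differed by -1.04 and -0.54 on the Ets2-null and Ets2-wildtype pairs. Ccl17 differed by 2.92 and -0.31, and Itgae by 2.20 and 1.17, in the same order. Itgae was too dim to count in the Ets2-wildtype pair. The 7 measured B cell markers, a cell type that also carries CD80, CD86, CD40 and ICOSL, summed to 1339 and 1875, against 1353 and 749, and differed in direction between the pairs. Of 5 bright B cell markers, 3 passed 2-fold higher in tumor between the Ets2-wildtype arrays (6.18% of all bright genes), with a list median of 0.98. Between the Ets2-null arrays Cd22 alone passed (1.17), where 7.61% of all bright genes were higher. Cd79a gave 0.80 there, while Cd79b, Ms4a1 and Fcrla gave -0.22, -0.45 and -0.12, and the list median was -0.12. Of the 7 B cell markers, 5 were at or above the median on both tumor arrays and on the Ets2-null remodeling array. On the Ets2-wildtype remodeling array 3 were. Cd79b (8.18 to 9.08), Ms4a1 (7.60 to 8.58) and Fcrla (6.97 to 8.85) were so on all 4. Pax5, which defines the B lineage, stayed near the 25th percentile, at 4.24 and 4.66 on the tumor arrays and 4.39 and 4.26 on the remodeling arrays. The 11 measured T and NK cell markers summed to 4680 and 5283, against 3297 and 3803, with the T cell receptor subunit gene Cd3e at 10.97 and 11.11, against 10.39 and 10.72. Of 6 bright ones 2 passed 2-fold higher between the Ets2-wildtype arrays, Cd3g (1.33) and Cd4 (1.08), where 6.18% of all bright genes did. Between the Ets2-null arrays 0 of 6 passed, where 7.61% of all bright genes were higher. Cd4 gave -0.445 there, while all the other bright ones were higher in tumor, by 0.12 to 0.86. The list median was 0.545 on the Ets2-null and 0.341 on the Ets2-wildtype arrays.

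All 11 mammary epithelial markers were at or above the median on both tumor arrays, against 2 and 3 on the remodeling arrays, and summed to 19330 and 10529, against 436 and 817. The 8 measured fibroblast markers summed to 10128 and 10163 on the tumor arrays, against 5897 and 19539 on the Ets2-null and Ets2-wildtype remodeling arrays. Mast cell markers (7 measured) summed to 478 and 681, against 271 and 1479, endothelial markers (7) to 357 and 361, against 269 and 579, and neutrophil markers (7) to 17235 and 6474, against 9046 and 13550. For Actb, the 3' control probe set exceeded the 5' one, a gap that widens as RNA degrades or amplified products shorten, by 3.54 and 3.30 on the tumor arrays, against 2.96 and 2.72 on the remodeling arrays. For Gapdh the gap was 2.27 and 2.45, against 1.80 and 1.61. The part of these cells and of RNA quality in the Cd80, Cd274, Tnfsf9 and receptor differences was not tested. The 12 macrophage markers summed to 51459 and 54120 on the tumor arrays, against 54647 and 56731 on the remodeling arrays.

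**Figure D4:**
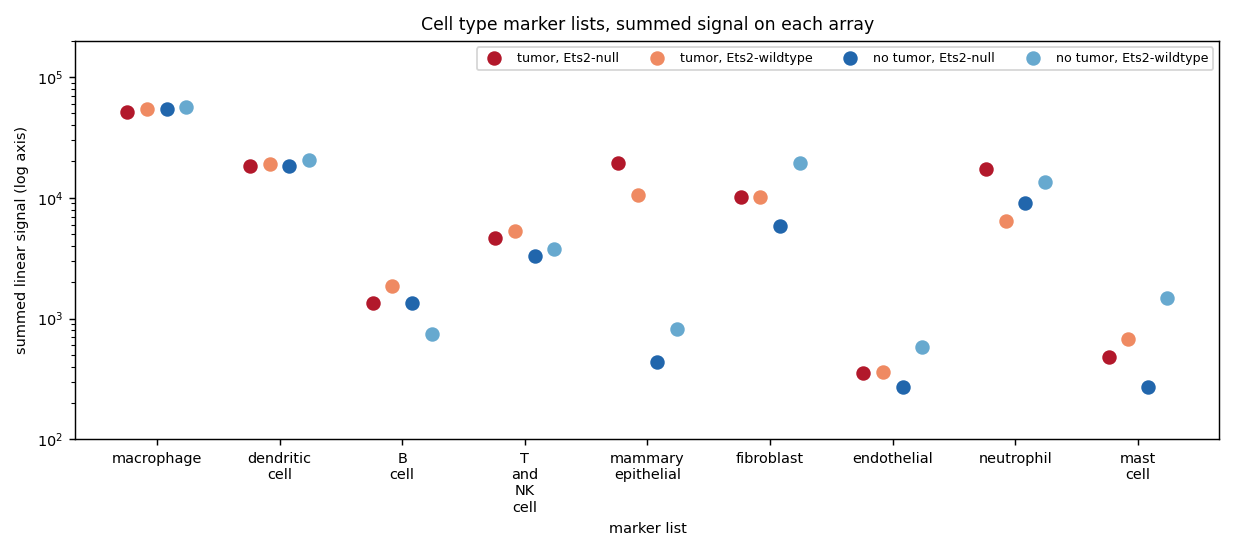
Summed linear signal (y axis, log scale) of 9 cell type marker lists (x axis), 1 point per array. The macrophage sum runs from 51459 to 56731 over the 4 arrays, while the mammary epithelial sum is 19330 and 10529 on the tumor arrays and 436 and 817 on the remodeling arrays.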

How the data were processed

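Gene expression was measured in 4 samples of sorted mouse mammary macrophages, 1 array per group. The deposited values are log2 expression values. Per the submitters' processing notes, GCOS and RMA were used. Their versions, order and settings, and which arrays were normalized in 1 run, are not given in the sources used here. No further scaling was applied. Of 22690 probe sets, 64 were controls, 20380 named exactly 1 gene and 691 several. The 13 ligand probe sets matched their genes by Entrez identifier as well as by symbol. A gene was represented by its probe set of highest mean over the 4 arrays. Differences were called at 2-fold where the brighter array was at or above its own median. The number of arrays limits the precision. Samples were grouped by title, and the 4 comparisons have no test. Calculations used Python 3.11.15, numpy 2.4.6 and pandas 2.3.3, and the calling step was tested on simulated data.

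The members and the 4 lists of related genes and 9 lists of markers were chosen with earlier results of these data known. Named are all members with every probe set, Ets2, the members' receptors, and up to 4 called genes per list and comparison. For a bright member spanning at least 1 log2, the 3 genes nearest in mean-centred values are named too. Others are marked as named after their values were seen. Some called genes of the marker lists are given only as part of their list's sum. Alternatives were centring on array medians or on hybridization controls, quantile normalization, the mean of all probe sets of a gene, other brightness limits and a 1.5-fold threshold. Coordinates are those of RefSeq promoters, as no build is named with the arrays.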

Additional observations from a re-analysis of the deposited data

Results flagged for a closer look

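Cd80 probe set 1432826_a_at moved in opposite directions with the Ets2 label. The array labelled Ets2-null was higher by 0.50 log2 in tumor macrophages (6.44 against 5.94) and lower, at -0.76, in remodeling macrophages (7.80 against 8.56), so that the 2 differences lie 1.25 log2 apart. The other bright Cd80 probe sets gave 0.07 and 0.05 in tumor macrophages.

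Cd86 probe set 1449858_at also gave opposite signs, at 0.53 in tumor (10.18 against 9.64) and -0.19 in remodeling macrophages (9.97 against 10.17), 0.73 log2 apart. The same 4 values make tumor minus remodeling 0.20 on the arrays labelled Ets2-null and -0.52 on those labelled Ets2-wildtype, again 0.73 apart. These signs depend on the scaling. With arrays centred on their medians the remodeling Ets2 difference was 0 and tumor minus remodeling on the Ets2-null arrays was -0.11. With the hybridization controls as the centre they were 0.006 and -0.02. Quantile normalization kept the signs, at -0.193 and 0.229. The second Cd86 probe set, 1420404_at, gave -0.14 and 0.04 in the Ets2 comparisons. As deposited, each difference of 1432826_a_at and 1449858_at given here exceeded the median spread between probe sets of a gene. Of the rescaled differences of 1449858_at given here, those after quantile normalization did and those after either centring did not. With 1 array per group the differences between the groups were not tested.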

How the results depend on the processing

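The Cd80 call in tumor minus remodeling on the Ets2-wildtype arrays was kept after median centring, quantile normalization, centring on the hybridization controls, averaging all probe sets and with no brightness filter. With the 75th percentile brightness filter 0 members passed, as Cd80 then no longer counted, and at 1.5-fold 2 did (Cd80 and Cd274). Between the Ets2-null arrays 1 member passed, Tnfsf9, lower, after median centring (-1.18), after centring on the hybridization controls (-1.09) and at 1.5-fold. At 1.5-fold 1 member, Cd80, passed in the remodeling Ets2 comparison. Among bright genes of the 4 related lists 1 of 38 passed in the tumor Ets2 comparison and 1 of 37 in the remodeling Ets2 comparison. In tumor minus remodeling 7 of 38 passed on the Ets2-null and 8 of 39 on the Ets2-wildtype arrays. Of all bright genes 2.99%, 6.48%, 9.22% and 11.4% passed, in the same order. The related counts became 5, 6, 12 and 18 at 1.5-fold. At that threshold 670 of all 7225 bright genes were higher and 433 lower in the tumor Ets2 comparison. In the remodeling one 463 of 7095 were higher and 690 lower. In tumor minus remodeling 1145 of 7203 were higher and 559 lower on the Ets2-null arrays. On the Ets2-wildtype arrays 1223 of 7253 were higher and 942 lower. These backgrounds hold for the members at 1.5-fold too. With the 75th percentile filter the related counts were 0 in the tumor Ets2 comparison and 1 in each tumor minus remodeling comparison. With that filter 49 of all 3946 bright genes were higher and 13 lower in the tumor Ets2 comparison. In tumor minus remodeling 154 of 3978 were higher and 56 lower on the Ets2-null arrays, and 110 of 4007 and 169 on the Ets2-wildtype arrays. In the remodeling Ets2 comparison the related counts were 0 with all probe sets averaged and 3 with no filter. Of all genes 67 of 6558 were higher and 289 lower when averaged, and 119 of 12393 and 510 with no filter. The tumor minus the remodeling Ets2 difference moved with median centring to 0.42 for Cd80, 0.45 for Cd86, -0.52 for Cd40, 0.12 for Cd274, -0.16 for Pdcd1lg2, 0.11 for Icosl and -0.58 for Tnfsf9, and with averaged probe sets to 0.27 for Cd86 and -0.11 for Icosl. Member differences under the alternatives are not independent, since each centring shifts all members of a comparison by the same amount. Averaging cannot change Cd274, Pdcd1lg2 and Tnfsf9, which have 1 probe set each, so the following count is no measure of robustness. Of 112 member differences under other scalings or probe sets, 76 stayed within the median spread between probe sets and 22 changed sign. None of these 22 had been called. Small differences therefore have no settled direction. In the remodeling Ets2 comparison those of Cd274, Icosl and Tnfsf9 turned positive (0.06, 0.09 and 0.10) after median centring. That of Cd86 went to 0 and that of Cd80 shrank to -0.435. That centring moves the median of all genes in tumor minus remodeling on the Ets2-null arrays from 0.01 to -0.31 and in the remodeling Ets2 comparison from 0.04 to 0.23. Higher calls among all called genes were 74.5%, 20.2% and 82.5% in the tumor Ets2, remodeling Ets2 and Ets2-null tumor minus remodeling comparisons, and 58.1%, 39.5% and 50.8% after median centring. After quantile normalization they were 59.6%, 24.9% and 71.5%, and after centring on the hybridization controls 82.7%, 39.8% and 61.3%, in the same order. No paired analysis was possible because each group has 1 array. Signal over background is low for 1 Cd80 probe set, 1 Icosl probe set and Pdcd1lg2, whose differences say little.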

Other observations

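The genes whose pattern over the 4 arrays came nearest to that of Cd80, by the root mean square difference of mean-centred log2 values among 7472 bright genes, were St3gal1 (0.0296 log2), which encodes a sialyltransferase, Lysmd3 (0.0422) and Nlgn2 (0.0506). St3gal1 read 7.39 and 7.24 on the Ets2-null and Ets2-wildtype tumor arrays, against 7.86 and 8.49 on the remodeling arrays. With 4 arrays, close matches among so many genes are a description only. No other member spanned 1 log2 by its probe set of highest mean.

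Some dim probe sets hold the same value on all arrays, among them Xcr1 (4.64), a dendritic cell marker, and Ncr1 (3.92), an NK cell marker.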
